A study of Mus musculus with 12 samples.

Results

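The genes described here are 10 immediate early genes: Fos, Fosb, Jun, Junb, Atf3, Egr1, Nr4a1, Myc, Btg2 and Ier3. They were chosen by name, and each was read from the one probe set annotated to that gene and to no other, so they make up 10 of the 19938 genes with such a probe set. The measurements were made in ventricular tissue of male C57BL/6 mice on 12 Affymetrix whole-transcript arrays, 2 in each of 6 groups. Right ventricles (RV) came from sham mice 3 weeks after the operation at an age of 15 weeks, and from mice whose pulmonary artery had been narrowed with a metal clip (PAC) 1, 3 or 6 weeks earlier, at 13, 15 and 18 weeks of age. The left ventricles (LV) were those of sham mice or of mice clipped on the aorta (TAC), both at 3 weeks and at 15 weeks of age. The septum had been cut away as a separate piece, the hearts had been perfused with buffer, and all mice were fed freely. Sham mice were sampled at 3 weeks only, so at 1 and 6 weeks the mice compared were also of different ages and at different times since operation. The labels name no animal for an array, so n = 2 counts arrays and the p-values measure only the spread between these samples.

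Immediate early genes are transcribed within minutes of a stimulus, without new protein synthesis, through factors that are already present in the cell, and their transcripts are short-lived. Fos and Jun family proteins pair to form the AP-1 transcription factor, while Egr1, Nr4a1 and Myc are DNA-binding factors of other families. In the heart these genes are known for a brief rise after acute stretch, pressure load, adrenergic stimulation or tissue handling. The samples here were taken a week or more after the clip was placed, and effects of handling at collection were not tested.

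At 1 week after the pulmonary clip, Myc, Btg2 and Jun rose against sham RV and Fosb fell, while Fos, Junb, Atf3, Egr1, Ier3 and Nr4a1 did not pass the test. At 3 weeks none of the 10 passed, and at 6 weeks Jun alone passed, having risen. No member passed in TAC against sham LV, between the sham ventricles or between PAC times. The test was limma's moderated test with 1 mean per group over all 12 arrays and Benjamini-Hochberg adjustment over the 19938 genes. The threshold for a pass was an adjusted p of 0.05. All levels are on the log2 scale of the deposited values, all changes are log2 differences ± the limma standard error (SE), and group means are given ± SD with n = 2. The smallest p that exact permutation of 2 against 2 arrays allows is 0.33, and the p-values used here come from the model, whose spread is shared by all groups.

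The counts have to be read against the array as a whole. At 1 week 4 of the 10 members passed, where 18.4% of all genes did; 3 rose, against 9.57% of all genes, and 1 fell, against 8.86%. At 3 weeks the 0 members stood beside 5.76% of all genes, although 3 members had an unadjusted p below 0.05. At 6 weeks the 1 member, which rose, stood beside 9.25% called in either direction and 5.52% called higher, and 5 members had an unadjusted p below 0.05. The median change of the 10 members was 0.26, 0.19 and 0.44 at 1, 3 and 6 weeks, against -0.05 over all genes at each time. The 3 PAC times share the same 2 sham RV arrays, so these comparisons are not independent of each other. The shares of all genes also rest on single arrays. The 3675 genes called at 1 week were 1090 without sham RV array 1, 227 without sham RV array 2 and 317 without PAC 1 week array 2. At 3 weeks 1148 were called, and 3 without sham RV array 2 or without PAC 3 week array 2. At 6 weeks 1844 were called, 99 without sham RV array 2 and 3 without PAC 6 week array 2.

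Ventricular muscle transcripts and array quality were looked at before the members. Ventricular cardiomyocyte transcripts were high on all 12 arrays, with Myl2, the ventricular light chain, at 13.43 to 13.66 and Myh6, the adult myosin heavy chain, at 13.67 to 13.80. Myl2 and Myh6 were alike in every group, so they cannot check the labels of side or operation. Myh7 of the same list ran from 9.45 on sham RV array 1 to 12.80 on PAC 6 week array 2. Array mates correlated at 0.992 to 0.997 over all genes, with the lowest value in the PAC 1 week pair. The sham RV arrays had the narrowest spread of values over probe sets, with an SD of 2.18 on each against 2.21 to 2.24 on the other 10. In bulk tissue, fewer cells of a type and less RNA per cell cannot be told apart.

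**Figure D1:**
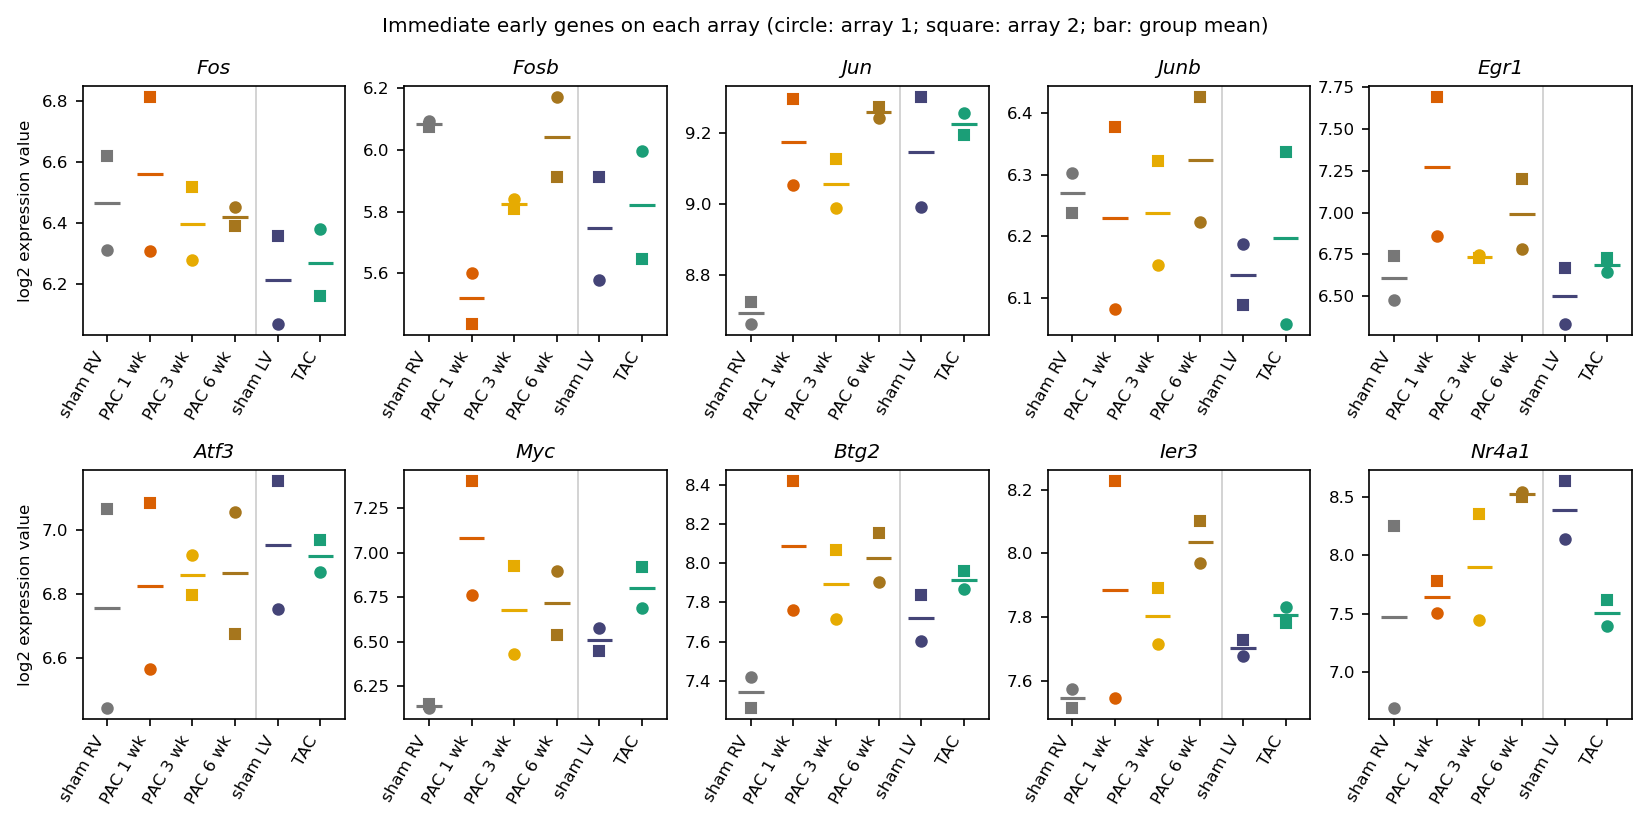
Log2 level of each of the 10 immediate early genes on each of the 12 arrays, 1 panel per gene and 1 point per array, with the bar at the group mean (n = 2 arrays); the vertical axis is the deposited log2 value and differs between panels, so heights are compared only within a gene. Jun, Myc and Btg2 are lowest on both sham RV arrays, Fos shows no group that stands clear of the rest, and the sham RV pair of Nr4a1 spans 6.70 to 8.25.

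The promoters of 4 members are shown because these genes behaved differently on the arrays: Fos stayed within the spread at every time, Fosb fell, and Jun and Btg2 rose at 1 week. Each window runs from 250 bases before to 50 bases after the annotated start in RefSeq on GRCm38.p6, read 5′ to 3′ on the gene's strand. The windows are Fos at chr12:85473640-85473939 (plus strand), Fosb at chr7:19309996-19310295 (minus strand), Jun at chr4:95052173-95052472 (minus strand) and Btg2 at chr1:134079106-134079405 (minus strand). Capitals mark the TATA box letters TATAAA and, on either strand, the core of the cyclic AMP response element, TGACG. They also mark TGACNTCA, the longer form to which Jun-containing pairs and CREB family factors bind.
Fos: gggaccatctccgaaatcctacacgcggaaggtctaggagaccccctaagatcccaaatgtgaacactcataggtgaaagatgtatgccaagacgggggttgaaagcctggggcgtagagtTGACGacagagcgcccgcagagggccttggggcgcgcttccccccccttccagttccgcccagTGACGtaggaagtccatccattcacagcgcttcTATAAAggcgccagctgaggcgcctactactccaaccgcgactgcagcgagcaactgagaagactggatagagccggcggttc
Fosb: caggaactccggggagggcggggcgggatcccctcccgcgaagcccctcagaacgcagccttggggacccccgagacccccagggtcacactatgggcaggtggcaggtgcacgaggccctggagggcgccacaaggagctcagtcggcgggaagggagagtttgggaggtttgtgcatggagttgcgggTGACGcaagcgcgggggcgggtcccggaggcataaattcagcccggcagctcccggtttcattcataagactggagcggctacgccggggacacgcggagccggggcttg
Jun: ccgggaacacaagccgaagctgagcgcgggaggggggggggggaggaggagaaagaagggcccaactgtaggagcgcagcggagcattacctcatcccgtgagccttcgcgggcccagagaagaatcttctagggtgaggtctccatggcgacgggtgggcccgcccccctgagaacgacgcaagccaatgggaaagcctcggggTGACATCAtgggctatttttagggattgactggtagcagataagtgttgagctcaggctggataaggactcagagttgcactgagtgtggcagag
Btg2: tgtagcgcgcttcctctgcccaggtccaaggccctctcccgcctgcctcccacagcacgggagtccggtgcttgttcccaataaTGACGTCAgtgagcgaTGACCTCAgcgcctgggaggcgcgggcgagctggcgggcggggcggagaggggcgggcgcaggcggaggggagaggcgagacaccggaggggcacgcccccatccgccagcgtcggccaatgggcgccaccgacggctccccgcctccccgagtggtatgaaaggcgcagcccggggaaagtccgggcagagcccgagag

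Windows on chromosome 18, where Egr1 lies, were left out of the search and of the background, and none was available for Myc. The search therefore covered 8 of the 10 members. TGACNTCA, searched on both strands, stood in 2 of the 8 windows and in 8.83% of 32851 promoter windows of the same length. One was Jun, at -45 to -38 from the start, where upstream bases count as negative. The other was Btg2, with matches at -166 to -159 and at -150 to -143, of which the first is the full palindrome TGACGTCA found in 1.79% of all windows. The core TGACG, which lies inside TGACGTCA, was found on either strand in 6 of the 8 windows against 20.8% of all windows. Fos held it at -129 to -125 and at -66 to -62, and Fosb at -60 to -56. TATAAA was found in 2 of the 8 windows, against 13.6% of all. Fos held it at -33 to -28 and Junb at 1 to 6, which is not upstream of the annotated start. GGGCGG, a GC box, was found in 7 of 8 against 35.7%, and GCGNGGGCG, a form of the Egr site, in 3 of 8 against 5.55%. The CArG box bound by serum response factor was found in 0 of 8 against 1.63% of all windows, the AP-1 site TGANTCA in 0 of 8 against 7.81%, and the E-box CACGTG, which Myc and Max bind, in 0 of 8 against 7.15%. Bases farther than 250 before the start were not searched, nor were Egr1 and Myc. A count of 0 of 8 therefore does not mean that the genes lack such sites. A match describes letters in these windows and was not tied to the array values.

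Jun, the DNA-binding partner common to most AP-1 pairs, was lower on both sham RV arrays than on any other array. Its levels were 8.66 and 8.72 in sham RV, 9.06 and 9.30 in PAC at 1 week, 8.99 and 9.13 at 3 weeks, and 9.24 and 9.28 at 6 weeks. In the LV they were 8.99 and 9.30 in sham and 9.26 and 9.20 in TAC. The 6 PAC arrays therefore spanned 8.99 to 9.30, an interval that the LV arrays also spanned. Jun rose by 0.48 ± 0.12 at 1 week (limma adjusted p = 0.024) and by 0.57 ± 0.12 at 6 weeks (limma adjusted p = 0.022), a 1.48-fold change. At 3 weeks the change was 0.36 ± 0.12 (limma adjusted p = 0.080). All 6 PAC arrays lay above both sham RV arrays for Jun, Myc and Btg2, as they did for 16.8% of all genes. All 10 other arrays, LV included, lay above both sham RV arrays for the same members, as they did for 12.4% of all genes.

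The Jun calls depended on single arrays and on scaling. At 1 week the change was 0.36 without PAC 1 week array 2 (limma adjusted p = 0.15), 0.45 without sham RV array 1 (0.086 by the same test) and 0.51 without sham RV array 2 (0.092). With cyclic loess scaling it was 0.37 (limma adjusted p = 0.072). At 6 weeks the change was 0.55 without PAC 6 week array 2 (limma adjusted p = 0.17), 0.54 without sham RV array 1 (0.082), 0.60 without sham RV array 2 (0.094), and 0.46 under cyclic loess (0.051).

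Fosb, a partner of Jun proteins, was the member that moved the other way. It read 6.09 and 6.07 in sham RV, 5.60 and 5.44 in PAC at 1 week, 5.84 and 5.81 at 3 weeks, and 6.17 and 5.91 at 6 weeks. In the LV it read 5.58 and 5.91 in sham and 6.00 and 5.65 in TAC. Both PAC 1 week arrays lay below both sham RV arrays, and 5 of the 6 PAC arrays did. Fosb fell by 0.56 on the log2 scale at 1 week (SE 0.14, limma adjusted p = 0.028), and the 6-week value was -0.04 ± 0.14 (limma adjusted p = 0.87). These levels lie close to the median of the 12146 unlisted probe sets, which was 5.65 to 5.79 by array. Without PAC 1 week array 2 the 1-week change was -0.48 (limma adjusted p = 0.16), without sham RV array 1 it was -0.55 (0.090), without sham RV array 2 it was -0.57 (0.11), and under cyclic loess it was -0.37 (0.094).

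Fos, the gene after which the AP-1 response is usually read, stayed within the spread of its arrays. Its levels were 6.31 and 6.62 in sham RV, 6.31 and 6.81 in PAC at 1 week, 6.28 and 6.52 at 3 weeks, and 6.45 and 6.39 at 6 weeks. In the LV they were 6.07 and 6.36 in sham and 6.38 and 6.16 in TAC. The PAC and sham RV arrays overlapped at every time, and 1 of the 6 PAC arrays lay above both sham RV arrays. The change was 0.10 ± 0.18 at 1 week (95% interval -0.29 to 0.48), -0.07 at 3 weeks (-0.46 to 0.32) and -0.04 at 6 weeks (-0.43 to 0.34). The intervals leave room for changes of that size in either direction.

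Junb, a Jun family protein that restrains growth, and Atf3, a stress-induced factor that pairs with Jun, also did not pass in any comparison. Junb had the narrowest range of the 10 members, 0.37 over the 12 arrays, and its 1-week change was -0.04 ± 0.13 (limma adjusted p = 0.84). Atf3 read 6.45 and 7.07 in sham RV against 6.57 and 7.08 in PAC at 1 week, so the gap within each pair was larger than the difference between their means. Its 1-week change was 0.07 ± 0.23 (limma adjusted p = 0.84). Of 11 other AP-1, Egr and Nr4a family genes listed, 1 fell and none rose at 1 week, none passed at 3 weeks, and 1 rose and none fell at 6 weeks. The gene that fell was Egr4, by 0.48 on the log2 scale at 1 week (SE 0.12, limma adjusted p = 0.028). Egr4 read 7.03 and 6.96 in sham RV, the highest of the 12 arrays, 6.60 and 6.45 in PAC at 1 week, and 6.38 to 6.71 in the LV. The shares of all genes at 1, 3 and 6 weeks were 9.57%, 3.22% and 5.52% higher and 8.86%, 2.54% and 3.73% lower.

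Egr1, a zinc finger factor induced through serum response factor, was high on one array. It read 6.48 and 6.74 in sham RV, 6.86 and 7.69 in PAC at 1 week, 6.74 and 6.73 at 3 weeks, 6.78 and 7.20 at 6 weeks, 6.33 and 6.67 in sham LV, and 6.64 and 6.73 in TAC. The highest value was PAC 1 week array 2, which stood 0.83 above its mate, and the PAC 1 week arrays did not overlap sham RV. The change at 1 week was 0.67 ± 0.23 (limma adjusted p = 0.068) and at 6 weeks 0.38 (0.29). The 1-week value was 1.08 without PAC 1 week array 1 (limma adjusted p = 0.0051) and 0.25 without PAC 1 week array 2 (limma adjusted p = 0.44). Egr2, its close relative, had the same array on top, with 6.08 and 7.14 in PAC at 1 week against 5.94 and 5.87 in sham RV (change 0.70 ± 0.25, limma adjusted p = 0.074).

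Nr4a1, an orphan nuclear receptor, varied more between array mates than almost any other gene. Its levels were 6.70 and 8.25 in sham RV, 7.51 and 7.78 in PAC at 1 week, 7.44 and 8.35 at 3 weeks, 8.54 and 8.50 at 6 weeks, 8.14 and 8.63 in sham LV, and 7.40 and 7.62 in TAC. The sham RV mates differed by 1.55, and the SD within groups was at the 99.8th percentile of all genes. The 6-week arrays lay above both sham RV arrays, with a change of 1.05 ± 0.42 (limma adjusted p = 0.12). It was 0.27 without sham RV array 1 (limma adjusted p = 0.63) and 1.82 without sham RV array 2 (limma adjusted p = 0.054). Both TAC arrays lay below both sham LV arrays, with a change of -0.88 ± 0.42 (limma adjusted p = 0.98). Nr4a3, a receptor of the same family, rose by 0.67 ± 0.16 at 6 weeks (limma adjusted p = 0.030), from 6.04 and 6.47 in sham RV to 6.78 and 7.07.

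Myc, a factor that drives growth and ribosome production with its partner Max, had the largest change of the 10 members at 1 week. It read 6.13 and 6.15 in sham RV, 6.76 and 7.40 in PAC at 1 week, 6.43 and 6.93 at 3 weeks, 6.90 and 6.54 at 6 weeks, 6.57 and 6.45 in sham LV, and 6.69 and 6.92 in TAC. The sham RV pair was the lowest and agreed within 0.02, and the PAC pairs were each at least 0.36 apart. Myc rose by 0.94 ± 0.21 at 1 week (limma adjusted p = 0.020), a 1.92-fold change. It measured 0.54 ± 0.21 at 3 weeks (limma adjusted p = 0.13) and 0.58 ± 0.21 at 6 weeks (limma adjusted p = 0.10). Without PAC 1 week array 2 the 1-week change was 0.62 (limma adjusted p = 0.13), without sham RV array 1 it was 0.94 (0.071), and without sham RV array 2 it was 0.95 (0.093).

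Genes that Myc is known to activate rose where they passed. Of 22 such genes listed, 8 rose and none fell at 1 week, 3 rose and none fell at 3 weeks, and 7 rose and none fell at 6 weeks. Among all genes, 9.57%, 3.22% and 5.52% rose and 8.86%, 2.54% and 3.73% fell at these times. A link of these changes to Myc was not tested. The list's median change was 0.30, 0.17 and 0.24, against -0.05 over all genes. The list mean was lowest on both sham RV arrays, at 9.22 and 9.18. It was 9.40 to 9.58 on the PAC arrays, 9.39 on each sham LV array, and 9.44 and 9.46 in TAC. Between the sham ventricles no gene of the list passed, and the list's median difference was -0.16, lower in sham RV. The part of the low sham RV levels in these rises was not tested. Tfrc, the transferrin receptor, rose by 1.56 ± 0.15 at 1 week, by 1.54 at 3 weeks and by 1.28 at 6 weeks. Nop58, a nucleolar protein of ribosome assembly, rose by 0.63 and Cdk4, a cell cycle kinase, by 0.41 at 1 week. The 1-week count was 1 when PAC 1 week array 2 was left out, 4 when sham RV array 1 was, and 2 when sham RV array 2 was, and the 6-week count was 0 without PAC 6 week array 2. Among 11 partners and antagonists of Myc, 2 fell at 1 week: Mnt, a Max partner that opposes Myc, by 0.37 and Zbtb17, a factor that Myc binds, by 0.34. At 3 weeks Mxd4, another Max partner, rose by 0.38, and at 6 weeks no gene of this list passed.

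Btg2, an inhibitor of cell division, and Ier3, a small protein linked to cell survival, followed each other most closely among the members, with r = 0.90 over the 12 arrays. Btg2 read 7.42 and 7.26 in sham RV, 7.76 and 8.42 in PAC at 1 week, 7.72 and 8.07 at 3 weeks, 7.90 and 8.15 at 6 weeks, 7.60 and 7.84 in sham LV, and 7.87 and 7.96 in TAC. Both sham RV arrays were the lowest of the 12. Btg2 rose by 0.75 ± 0.20 at 1 week (limma adjusted p = 0.030) and measured 0.55 ± 0.20 at 3 weeks (0.10) and 0.69 ± 0.20 at 6 weeks (0.053). Without PAC 1 week array 2 the 1-week change was 0.42 (limma adjusted p = 0.19), without sham RV array 1 it was 0.83 (0.075), and without sham RV array 2 it was 0.67 (0.14).

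Ier3 read 7.57 and 7.52 in sham RV, 7.55 and 8.23 in PAC at 1 week, 7.72 and 7.89 at 3 weeks, 7.97 and 8.10 at 6 weeks, 7.68 and 7.73 in sham LV, and 7.83 and 7.78 in TAC. All PAC arrays but PAC 1 week array 1 lay above both sham RV arrays. The change was 0.34 ± 0.17 at 1 week (limma adjusted p = 0.17), 0.26 at 3 weeks (0.33) and 0.49 ± 0.17 at 6 weeks (0.092). The 1-week value followed the arrays kept: it was 0.68 without PAC 1 week array 1 (limma adjusted p = 0.0039) and 0.0019 without PAC 1 week array 2 (limma adjusted p = 0.99).

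**Figure D2:**
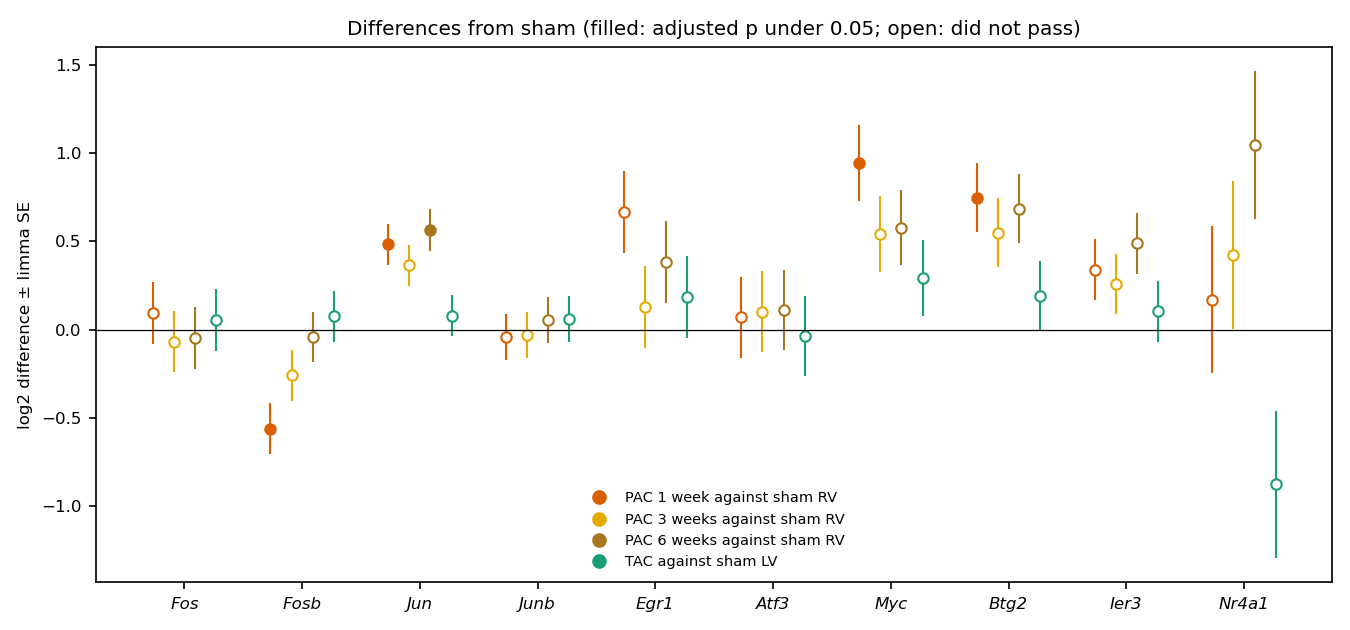
Log2 change of each of the 10 genes against sham RV at 1, 3 and 6 weeks after the pulmonary clip, and of TAC against sham LV at 3 weeks. Points are limma estimates from 2 against 2 arrays, and bars are ± the limma SE. A filled point passed an adjusted p of 0.05. Filled points are Myc, Btg2, Jun and Fosb at 1 week and Jun at 6 weeks.

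PAC and sham RV arrays did not overlap for 5 of the 10 members at 1 week, 5 at 3 weeks and 6 at 6 weeks, against 63.1%, 61.1% and 61.8% of all genes. TAC and sham LV did not overlap for 4 members, against 41.3% of all genes. The median absolute change at 1 week was 0.41 over the members and 0.20 over all genes.

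The members also differed between arrays of one group. In the PAC 1 week pair, array 2 was higher for 9 of the 10 members, where 47.5% of all genes were higher on it, and the median absolute gap was 0.51 over the members against 0.14 over all genes. The gaps ran from -0.16 for Fosb to 0.83 for Egr1. In the sham LV pair, array 2 was higher for 8 members (50.3% of all genes), with a median gap of 0.30 against 0.10. In sham RV the members' median gap was 0.11 against 0.12 over all genes, with Nr4a1 far beyond it. The SD within groups put Egr1 at the 97.5th percentile of all genes, Atf3 at 97.2 and Myc at 96.5, while Jun was at 56.4.

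**Figure D3:**
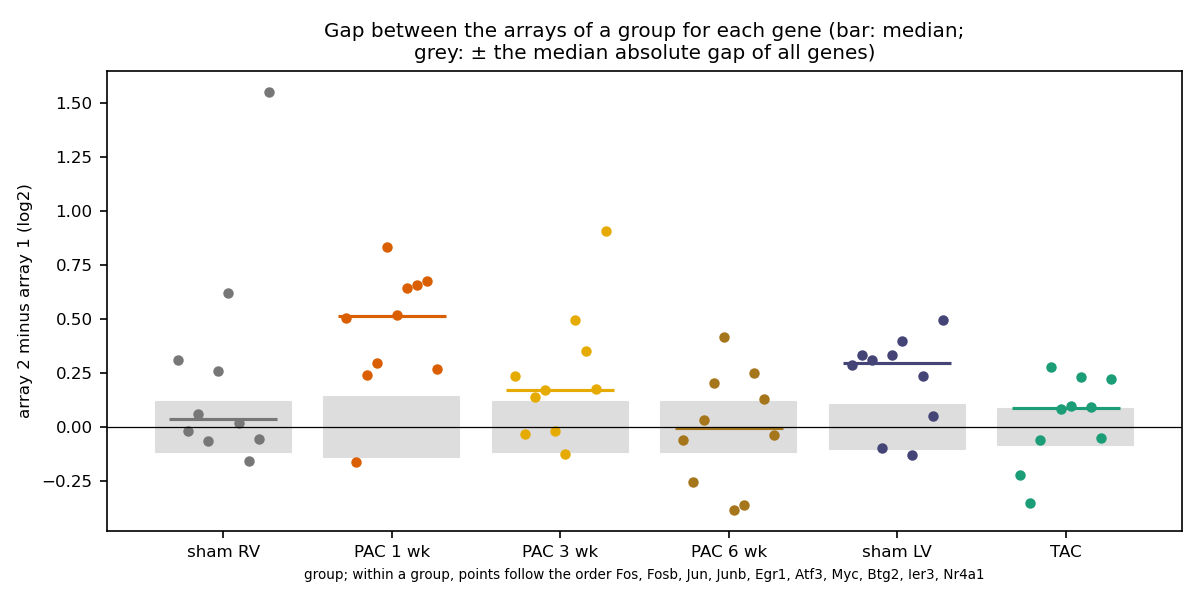
Gap between the 2 arrays of each group (array 2 minus array 1, log2) for the 10 genes, 1 column per group and 1 point per gene. In PAC at 1 week 9 of the 10 gaps are above 0, reaching 0.83 for Egr1, and the sham RV column holds the widest gap, 1.55 for Nr4a1.

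Markers of other cell types also differed between arrays, but not in the same direction for every type. In the PAC 1 week pair, array 2 had the higher mean for the atrial, macrophage, fibroblast, smooth muscle and neutrophil lists. Array 1 had the higher mean for the endothelial, epicardial, lymphocyte and adipocyte lists. The mean of 8 atrial cardiomyocyte markers was 7.73 and 7.27 in sham RV, 9.21 and 10.30 in PAC at 1 week, 8.55 and 9.61 at 3 weeks, and 8.42 and 8.81 at 6 weeks, with 8.10 and 9.11 in sham LV and 8.30 and 8.26 in TAC. Of these markers 6 rose at 1 week, 3 at 3 weeks and 2 at 6 weeks, where 1 fell. For this and the other marker lists, the shares of all genes that rose were 9.57%, 3.22% and 5.52% at 1, 3 and 6 weeks. The shares that fell were 8.86%, 2.54% and 3.73%. Bmp10, an atrial growth factor, read 8.55 and 10.50 in PAC at 1 week and 8.79 on PAC 3 week array 2, against 4.28 to 4.79 on the other arrays. Array 2 carried the higher atrial mean in the PAC pairs and in sham LV, and array 1 did in sham RV and TAC. In PAC at 1, 3 and 6 weeks, 9, 7 and 5 of the 10 members were higher on array 2. The shares of all genes were 47.5%, 49.9% and 48.0%. Members higher on array 2 were 8 in sham LV (50.3% of all genes), 6 in sham RV (41.8%) and 6 in TAC (50.9%). A link between the atrial markers and the members was not tested.

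Of 9 macrophage and monocyte markers, 8 rose at 1 week and none passed at 3 or 6 weeks. Their mean was 7.70 and 7.68 in sham RV, 8.14 and 8.90 in PAC at 1 week, and 7.82 to 8.19 on the 4 later PAC arrays. Of 8 fibroblast markers, 5 rose at 1 week, 4 at 3 weeks and 2 at 6 weeks, with means of 9.45 on each sham RV array and 10.28 and 11.10 in PAC at 1 week. Of 8 endothelial markers 3 rose at 1 week, 5 at 3 weeks and none at 6 weeks, with means of 9.60 and 9.64 in sham RV and 9.80 to 10.07 on the PAC arrays. Smooth muscle and pericyte markers rose in 2, 3 and 2 of 7 at 1, 3 and 6 weeks. Of 6 epicardial and mesothelial markers 2 rose at 1 week, with means of 7.92 and 7.69 against 7.37 and 6.73 in sham RV, and none passed later. Lymphocyte markers fell in 4 of 6 measured at 1 week and in 2 at 6 weeks, with array means of 5.57 to 5.92, and adipocyte markers fell in 2 of 5 at 1 week and in 1 at 3 weeks. Neutrophil markers had means of 4.39 to 4.61 on all arrays, and none passed in PAC against sham RV. The part of RNA from any of these cell types in the changes of the members was not tested.

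In the LV under the aortic clip, none of the 10 members passed in TAC against sham LV, where 0% of all genes did by limma and 963 genes had an unadjusted p below 0.05, none of them a member. The median change of the members was 0.08. Myc measured 0.29 ± 0.21, with both TAC arrays above both sham LV arrays. The PAC change less the TAC change at 3 weeks was tested as an interaction, and 0% of all genes passed, with 2381 at an unadjusted p below 0.05. The member with the largest value was Nr4a1, at 1.30 ± 0.59 (limma adjusted p = 0.42). That value was 0.53 without sham RV array 1, 2.08 without sham RV array 2 and 0.85 without PAC 3 week array 2.

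Between the sham ventricles 0.411% of all genes passed and 4123 had an unadjusted limma p below 0.05. None of the 10 members passed, and 2, Jun and Fosb, had an unadjusted limma p below 0.05. Fosb was higher in sham RV, by 0.34 ± 0.14 (limma adjusted p = 0.22). Jun was lower in sham RV by a difference of -0.45 ± 0.12 (limma adjusted p = 0.086), and Nr4a1 measured -0.91 ± 0.42 (limma adjusted p = 0.25), which was -0.14 when sham RV array 1 was left out and -1.69 when its mate was. The arrays of the sham ventricles did not overlap for 6 members, against 55.4% of all genes: Fosb and Junb were higher in sham RV, and Jun, Myc, Btg2 and Ier3 were lower. These differences used the same sham RV arrays as the PAC comparisons.

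Between 3 weeks and 1 week 0.0552% of all genes passed, and between 6 weeks and 1 week 0.0953%, with no member among them. From 1 to 3 weeks Egr1 measured -0.54 ± 0.23 (limma adjusted p = 0.60). From 1 to 6 weeks Fosb measured 0.52 ± 0.14 (limma adjusted p = 0.23) and Nr4a1 0.88 ± 0.42 (0.54).

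The wider group of immediate early transcripts was listed as 50 genes. Of these 6 rose and 1 fell at 1 week, 4 rose and 1 fell at 3 weeks, and 6 rose and 1 fell at 6 weeks. Over all genes 9.57%, 3.22% and 5.52% rose and 8.86%, 2.54% and 3.73% fell at the same times. The list's median change was 0.22, 0.19 and 0.22. Nfil3, a repressor that also belongs to clock output, was the gene that fell at 1 week, by 0.89 on the log2 scale, and at 6 weeks. Klf10, a zinc finger factor induced by TGF-beta, rose by 1.08 ± 0.13 at 1 week (limma adjusted p = 0.003), by 0.75 at 3 weeks and by 1.08 at 6 weeks. Ccn2, the connective tissue growth factor, rose by 1.98 ± 0.49 at 6 weeks (limma adjusted p = 0.036). Sgk1, a kinase induced by serum and glucocorticoids, rose by 0.87 ± 0.21 at 3 weeks, and Ier5, related to the Ier family, rose by 0.75 ± 0.21 at 1 week. The 1-week count of genes that rose was 3 when PAC 1 week array 2 was left out, 3 when sham RV array 1 was, and 2 when sham RV array 2 was.

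Plk2, a kinase of the polo family, was, like Jun, lowest on both sham RV arrays. It read 8.70 and 8.69 in sham RV and 9.24 to 9.48 on all 10 other arrays. It rose by 0.69 ± 0.09 at 1 week (limma adjusted p = 0.003) and by 0.65 at 3 weeks, and it was lower in sham RV than in sham LV, with a difference of -0.58 ± 0.09 (limma adjusted p = 0.031).

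Of 27 kinases and factors upstream of these genes, 22 were measured. At 1 week 2 rose and 1 fell, at 3 weeks 2 rose, and at 6 weeks 2 rose and 2 fell. Among all genes, 9.57%, 3.22% and 5.52% rose and 8.86%, 2.54% and 3.73% fell at these times. Rps6ka3, a kinase downstream of ERK, rose by 0.60 ± 0.11 at 1 week, by 0.48 at 3 weeks and by 0.50 at 6 weeks. Elk3, a partner of serum response factor, rose by 0.50 ± 0.10, 0.47 and 0.38 at the same times. Mef2d, a muscle transcription factor, fell by 0.34 at 1 week and by 0.40 at 6 weeks. Of 13 heat shock genes, which respond to acute stress, 11 were measured and none passed in any of the 8 comparisons, with list means of 10.14 to 10.36 over the 12 arrays.

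**Figure D4:**
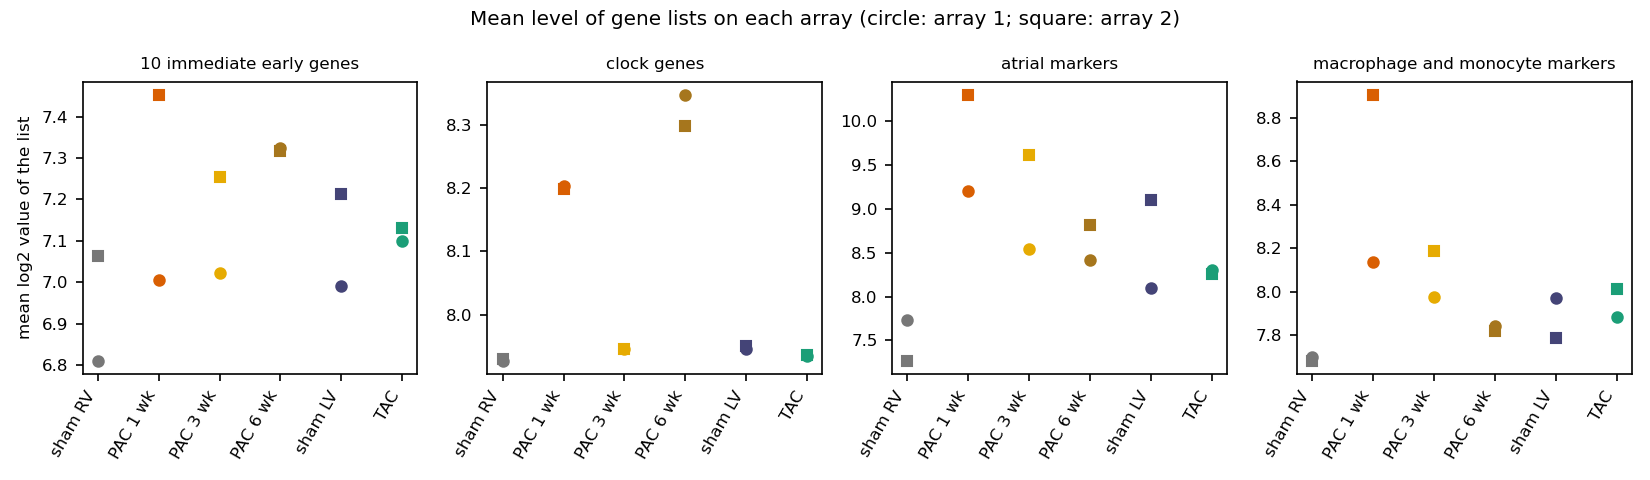
Mean log2 level of gene lists on each of the 12 arrays, 1 panel per list and 1 point per array. The lists are the 10 immediate early genes, clock genes, atrial markers, and macrophage and monocyte markers. The vertical axis differs between panels. The atrial mean is highest on PAC 1 week array 2, at 10.30, and lowest on sham RV array 2, at 7.27.

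The genes whose levels were most like those of Fos and Myc over the 12 arrays are given as a description, among 9656 named genes above the median level. For Fos these were Ube2j1 (r = 0.90, rho = 0.83), Myo7a (0.89, 0.83), Col18a1 (0.87, 0.72), Erbb2 (0.86, 0.78) and Arhgap35 (0.82, 0.63). For Myc they were Sting1 (r = 0.95, rho = 0.92), Rcc2 (0.94, 0.89), Fam111a (0.93, 0.83), Ifnar1 (0.92, 0.91) and Rfc3 (0.92, 0.95). The points share the same arrays and groups, so a difference between groups enters each r.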

How the data were processed

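The values were the log2 expression levels deposited by the authors for 12 Affymetrix arrays, from RMA run with Affymetrix Power Tools per the submitters' processing notes. RMA sets the arrays to a shared distribution, so a change is relative to the other genes on the array. Software version, library files and build: not given in the sources used here. Values ran from 1.71 to 14.78 and were not rescaled. Of 35556 probe sets, 21789 named a single gene, 1621 several, and 12146 were unlisted. Where a gene had several, the one with the highest mean was kept, giving 19938 genes.

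A model with 1 mean per group was fitted with limma 3.58.1 in R 4.3.3 (6 residual and 4.6 prior degrees of freedom), with 8 comparisons. Up to 4 genes per other list and comparison are named, those that passed first and then by size of change. The method was tested on simulated data. The members and lists were chosen with earlier results of these data known. The number of arrays limits the precision. Alternatives were cyclic loess, the mean over probe sets, a filter on low genes, a trended robust prior, the compared arrays alone, a replicate block, and leaving out arrays.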

Additional observations from a re-analysis of the deposited data

How the results depend on the processing

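Of 1488 recomputed changes of single members, 1439 stayed on their side of the threshold, 26 lost a call and 23 gained one. The sign turned in 75, and in 0 of those had the member passed in either fit. The count of members that passed moved more. At 1 week it was 4 as reported, 2 under cyclic loess, 2 without genes below the median level of 6.74, 0 with only the arrays compared, 0 when sham LV array 2 and PAC 1 week array 2 were both left out, and 0 to 6 when 1 array was left out. That filter keeps 6 members, without Fos, Fosb, Junb and Myc. At 3 weeks it was 0, 2 with the pair of arrays left out and 0 to 1 with 1 array out. At 6 weeks it was 1, 0 under cyclic loess, 2 without the low genes, 4 with only the arrays compared, 3 with the pair of arrays left out, and 0 to 4 with 1 array out. For sham RV against sham LV it was 0, and 1 without the low genes or with the trended robust prior. For 3 weeks against 1 week it was 0, and 0 to 1 with 1 array out. Causes of these shifts were not tested.

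Same-numbered arrays deviated together among the 3 PAC groups (correlations 0.26, 0.26 and 0.37) but not between these and sham RV (-0.09 to 0.02), with -0.24 to 0.37 over all 15 pairs of groups. The replicate numbers were therefore not taken as pairing the arrays compared. With a replicate block 5 members passed at 1 week, Egr1 being added (0.67, limma adjusted p = 0.029), and 2 at 6 weeks, Btg2 being added (limma adjusted p = 0.029).

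Over the alternatives at 1 week the limma adjusted p ran from 0.024 to 0.16 for Fosb, 0.012 to 0.15 for Jun, 0.0036 to 0.15 for Myc and 0.0034 to 0.20 for Btg2, and at 6 weeks from 0.0072 to 0.17 for Jun. The counts in the other lists without single arrays were chosen after seeing the data. Over all genes the counts called under other omissions of 1 array ran up to 4557 at 1 week, 2070 at 3 weeks and 2656 at 6 weeks, each without PAC 1 week array 1.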

Other observations

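Circadian clock genes differed between collection times. The labels give no time of day. Of 15 clock genes measured out of 16 listed, 5 rose and 2 fell in PAC against sham RV at 1 week, none passed at 3 weeks, and 6 rose and 2 fell at 6 weeks. Among all genes, 9.57%, 3.22% and 5.52% rose and 8.86%, 2.54% and 3.73% fell at these times. The mean of the clock genes was 8.20 on both PAC 1 week arrays, 8.35 and 8.30 on the PAC 6 week arrays, and 7.93 to 7.95 on the 8 arrays taken at 3 weeks. Dbp, a clock output factor, read 9.48 and 9.17 in PAC at 1 week, 9.63 and 9.28 at 6 weeks, and 7.85 to 8.28 on the 8 arrays taken at 3 weeks. Dbp rose by 1.30 ± 0.16 at 1 week (limma adjusted p = 0.003), and Arntl, a core activator of the clock also called Bmal1, fell by 0.62 on the log2 scale (limma adjusted p = 0.0074).

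Nfil3, an immediate early transcript that also takes part in clock output, read 7.11 and 7.20 in PAC at 1 week, 7.09 and 7.13 at 6 weeks, and 7.63 to 8.25 on the 8 arrays taken at 3 weeks. Nfil3 fell by 0.89 on the log2 scale at 1 week (limma adjusted p = 0.006) and by 0.93 at 6 weeks (limma adjusted p = 0.0075). Sik1, a kinase that limits resetting of the clock by light, rose by 0.92 ± 0.25 at 6 weeks (limma adjusted p = 0.044). All sham arrays were taken at 3 weeks, so time of collection and the clip cannot be told apart at 1 and 6 weeks.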
